A study of Mus musculus with 2 samples.

Results

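Mir126a, Mir221 and Mir222 are 3 miRNA genes linked to blood vessels, and all 3 were found among the 1973 miRNA genes counted in the newborn mouse intestine. They were chosen by name, through their Ensembl identifiers ENSMUSG00000065540, ENSMUSG00000065422 and ENSMUSG00000065471, and not by their values. The tissue came from 2 littermates of strain B6NCrl at postnatal day 0, called pup 1 and pup 2, with 1 library of small RNA each. The animals carried no treatment or allele that the labels name, their sex was not collected, and the labels give no segment of the intestine. The series has 1 group, so levels are a description, and differences are those between 2 libraries or between genes of the same library. RNA of the whole organ mixes epithelium, muscle, vessels, nerve and blood, so fewer cells of a type and less RNA per cell cannot be told apart.

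A miRNA is cut from a hairpin in a longer transcript and guides the silencing of mRNAs that pair with its seed, bases 2 to 8 of the mature strand. miR-126 is the best known miRNA of endothelial cells, where it eases signalling from vascular growth factor receptors by repressing the inhibitors Spred1 and Pik3r2. Its gene lies in Egfl7, which encodes a protein secreted by endothelium. miR-221 and miR-222 come from a shared cluster and repress, among others, the receptor gene Kit and the cell cycle inhibitor gene Cdkn1b. In endothelium they are known to restrain the response to Kit ligand, but they are also made in vascular smooth muscle and in many dividing cells. In the gut, Kit marks the pacemaker cells of the muscle layer and mast cells.

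The mature strands are shown because their seeds set which mRNAs each miRNA can pair with, and capitals mark the seed. The sequences are those of RefSeq on GRCm38.p6, where all 3 genes had a hairpin entry. The set used here held no miR-126a-5p and no miR-222-5p, so these strands are not shown and their seeds were not searched.
miR-126a-3p: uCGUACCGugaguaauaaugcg
miR-221-3p: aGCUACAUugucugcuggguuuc
miR-222-3p: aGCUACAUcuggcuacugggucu
miR-221-5p: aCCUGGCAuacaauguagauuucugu
miR-221-3p and miR-222-3p, both of 23 bases, are identical over the first 8 bases and first differ at position 9, counted from the 5′ end. Placed side by side without gaps they match at 11 of 23 positions, most of them in those first 8 bases. The only other of 1738 mature sequences searched with the seed GCUACAU was miR-1928, whose gene had 0 counts in both pups. At these depths a true level of up to 3 counts can go unseen, or 0.841 CPM for pup 1 and 0.640 CPM for pup 2. CPM stands for counts per 1000000 counts in miRNA genes on their annotated strand. No other mature sequence in that table had the seed CGUACCG of miR-126a-3p or the seed CCUGGCA of miR-221-5p.

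The hairpins show where the strands lie, with mature strands of the RefSeq table in capitals. The counts are per hairpin and do not separate the 5p from the 3p strand, so each value below is that of a gene.
Mir126a hairpin: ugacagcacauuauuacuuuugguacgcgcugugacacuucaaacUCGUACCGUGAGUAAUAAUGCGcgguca
Mir221 hairpin: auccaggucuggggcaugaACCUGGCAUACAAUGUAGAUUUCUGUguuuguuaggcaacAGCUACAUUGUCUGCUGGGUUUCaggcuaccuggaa
Mir222 hairpin: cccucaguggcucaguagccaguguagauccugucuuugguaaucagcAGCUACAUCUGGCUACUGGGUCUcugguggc
Reads that mapped to several places, 30.0% ± 0.382 of each library (SD, n = 2), were counted for no gene. None of the 3 hairpins shared a run of 20 bases with another of 2202 annotated mouse miRNA hairpins, on either strand and leaving aside hairpins at the same place, such as Mir126b, which faces Mir126a. Among the 314 genes with at least 10 counts in each library, called detected here, 72 shared such a run (22.9%). The longest run that a hairpin shared with any other hairpin was 12 bases for Mir126a, 13 for Mir221 and 12 for Mir222. Matches elsewhere in the genome were not analysed here.

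On GRCm38, Mir126a lies on chromosome 2 from 26591357 to 26591429 on the plus strand, within Egfl7 (26580014 to 26593120). Of 19 annotated Egfl7 transcripts, 9 span the hairpin. It is intronic in 8 of them and exonic in 1, Egfl7-206, which is annotated as a retained intron. In 6 transcripts the intron is the same 600 bases, from 26591064 to 26591663. The hairpin also lies in an intron of Gm20532, a gene annotated across Egfl7. Mir222 lies on chromosome X from 19146893 to 19146971 and Mir221 from 19146294 to 19146388, both on the minus strand and within no other annotated gene of that strand. Mir222 is transcribed first, and 504 bases separate the hairpins. The nearest annotated gene upstream on the strand is the non-coding Gm14636, with a gap of 10009 bases to Mir222.

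**Figure D1:**
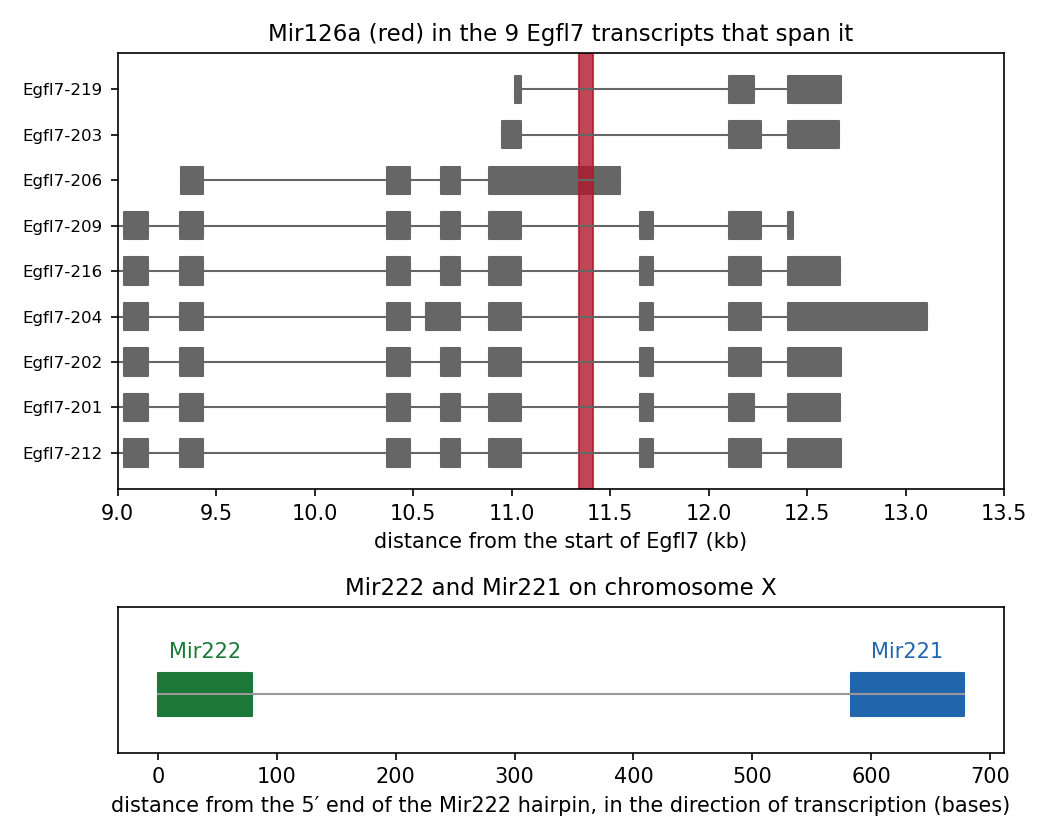
The upper panel draws the exons (boxes) and introns (lines) of the 9 Egfl7 transcripts that span Mir126a, against distance from the start of Egfl7 in kb, without the first 9 kb, and the hairpin as a red band. The band crosses a box only in Egfl7-206. The lower panel draws the hairpins of Mir222 and Mir221 in bases from the 5′ end of Mir222, with the gap of 504 bases between them.

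Counted from reads that mapped to 1 place, Mir126a was among the most abundant miRNAs of the newborn gut. The levels of Mir221 and Mir222 lay near the middle of the detected genes. Mir126a had 194915 counts in pup 1 and 233220 in pup 2. These are 54634 CPM (95% interval 54392 to 54877, exact Poisson) and 49791 CPM (49590 to 49994). Its mean was 52213 ± 3424 CPM (SD, n = 2), or 5.22% ± 0.342 of all counts in miRNA genes, and it ranked the third gene in both pups. Mir221 had 1202 and 1509 counts, which are 337 CPM (318 to 357) in pup 1 and 322 CPM (306 to 339) in pup 2. Its mean was 330 ± 10.4 CPM. Mir222 had 285 and 391 counts, which are 79.9 CPM (70.9 to 89.7) and 83.5 CPM (75.4 to 92.2), with a mean of 81.7 ± 2.54 CPM. The ranges of the 3 genes did not overlap: in both pups Mir126a was above Mir221 and Mir221 above Mir222. Poisson intervals cover counting error only, since the reads carry no molecular identifiers that the sources used here name.

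**Figure D2:**
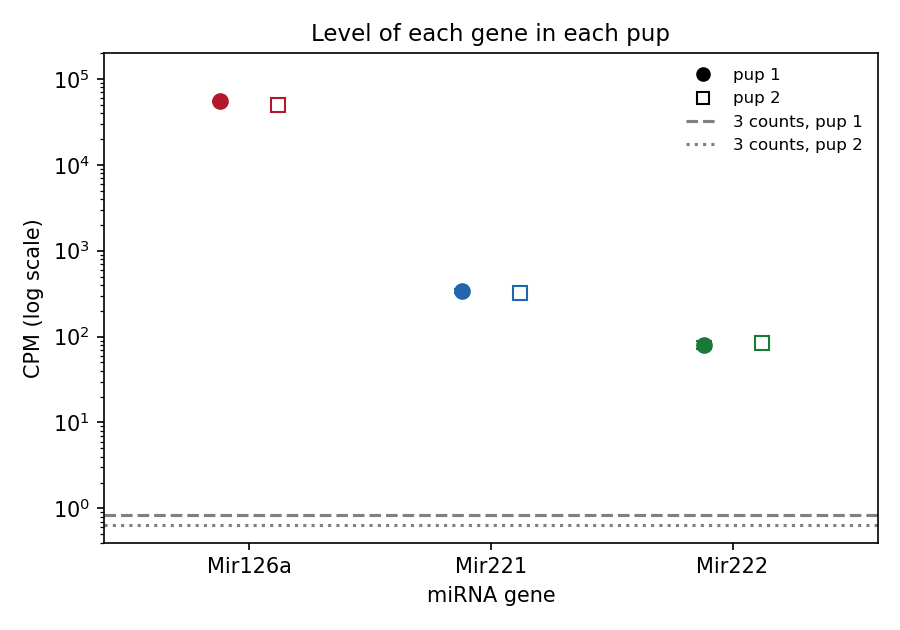
CPM on a log axis for Mir126a, Mir221 and Mir222 in pup 1 (filled circles) and pup 2 (open squares), with exact Poisson 95% intervals, many of them smaller than the symbol. The dashed (pup 1) and dotted (pup 2) lines mark 3 counts, and all 6 values lie far above them.

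In the order of mean levels over 314 detected genes, Mir126a stood at rank 3, Mir221 at rank 121 and Mir222 at rank 184. The median detected gene had 145 CPM, and the middle 50% of genes ran from 23.2 to 1056 CPM. Mir221 was thus above the median and Mir222 below it, both within that middle range. Directly above Mir126a stood Mir215, a miRNA of gut epithelium, with 138090 CPM in pup 1 and 170988 in pup 2. Directly below stood Mirlet7g, of the let-7 family of maturing tissues, with 42900 and 41239 CPM. Neither gene's range over the pups overlapped that of Mir126a, so its place held in each library. All these places leave out reads that mapped to several places. That can lower the 72 detected genes sharing a run of 20 bases with another hairpin, none of them a member.

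The neighbours of the other members in this order did not differ from them beyond the spread. Mir500, directly above Mir221, had 322 CPM in pup 1 and 352 in pup 2, and Mir341, directly below, had 345 and 291. Mir330, directly above Mir222, had 77.9 and 86.5 CPM, and Mirlet7a-2, directly below, had 69.8 and 90.3. All 4 ranges overlapped that of the member, which was likely in advance because these genes were picked for adjacent means. The genes most alike in log2(CPM + 1), by Euclidean distance over the 2 libraries, were Mirlet7g and Mir429 for Mir126a, at distances of 0.44 and 0.80. For Mir221 they were Mir300 and Mir500, at 0.10 and 0.14, and for Mir222 they were Mir330 and Mir669o, at 0.06 and 0.13. With 2 libraries such likeness is mostly one of level.

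**Figure D3:**
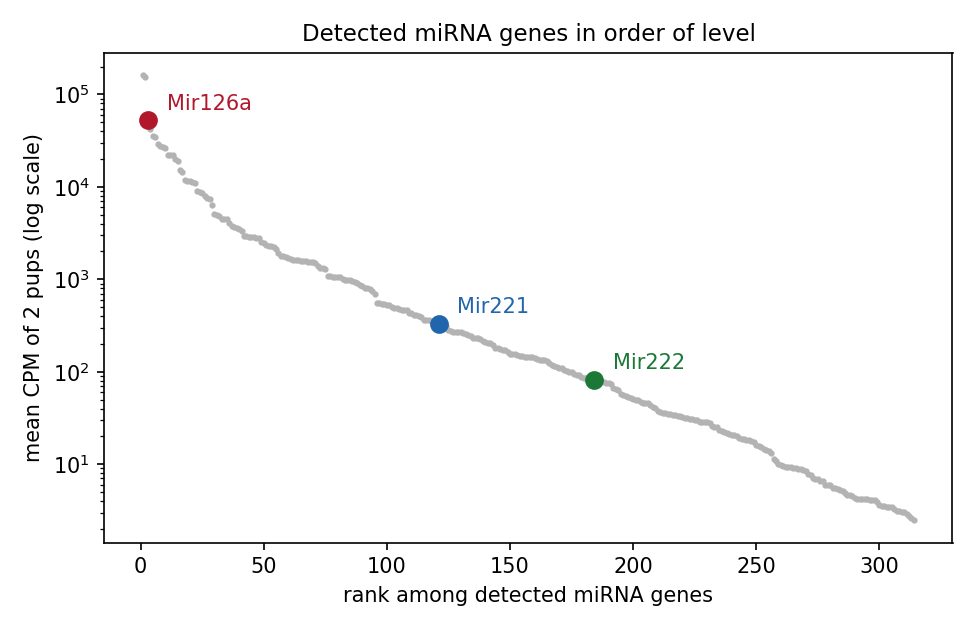
Mean CPM of the 2 pups on a log axis against rank for the 314 detected miRNA genes (grey), with the 3 members in colour. Mir126a sits at rank 3 on the steep part of the curve, and Mir221 and Mir222 sit at ranks 121 and 184 on the gently falling middle.

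Mir126a carried nearly all reads of the 3 genes, 99.2% of them in each pup. It exceeded Mir221 162-fold in pup 1 (95% interval 153 to 172, exact binomial) and 155-fold in pup 2 (147 to 163). It exceeded Mir222 684-fold in pup 1 (609 to 771) and 596-fold in pup 2 (540 to 660). On the log2 scale these ratios were 7.31 ± 0.05 and 9.32 ± 0.14 (SD, n = 2), and both passed edgeR's quasi-likelihood test, fitted with pup as block (adjusted p = 2.56e-05 for each). So did 94 of all 101 pairs in the fit, or 93.1%. The mature strands listed above have similar lengths, so no length correction was made. A ratio between miRNAs also holds any difference in how well ligation and amplification capture their sequences, which the spread between pups does not measure.

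Within the cluster, the gene transcribed second was the more abundant. Mir221 had 4.22 times the counts of Mir222 in pup 1 (95% interval 3.70 to 4.82, exact binomial) and 3.86 times in pup 2 (3.45 to 4.32). The log2 ratio, Mir222 over Mir221, was -2.01 ± 0.09 (SD, n = 2; edgeR adjusted p = 0.000119). Such inequality was common: of 99 pairs of adjacent detected miRNA genes on the same strand with starts within 10 kb, 92 passed the same test, which is 92.9%. In 49 of the 92 the first transcribed gene was higher and in 43 the second. The median pair was 6.48-fold apart, and 58 of the 99 pairs were more unequal than Mir222 and Mir221. Their starts lie 599 bases apart, near the median of 686 bases over the pairs. Of the 314 detected genes, 72 share a run of 20 bases with another hairpin, so part of their reads may be uncounted. The part of such uncounted reads in the inequality of the pairs was not tested.

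The inequality of Mir222 and Mir221 lay well inside the range of the other pairs. The pairs nearest to it in size were Mir669l with Mir467c, 4.01-fold apart with the second transcribed gene higher, and Mir337 with Mir540, 4.13-fold apart with the first higher. At the extremes, Mir20a exceeded Mir19b-1 740-fold and Mir99a exceeded Mirlet7c-1 409-fold, while Mir92-1 exceeded Mir19b-1 177-fold and Mir20a exceeded Mir19a 171-fold. Mir19b-1, Mir92-1, Mirlet7c-1, Mir669l and Mir467c share a run of 20 bases with another hairpin, so part of their reads may be uncounted. The SD of the log2 ratio between pups was 0.09 for Mir222 over Mir221, against a median of 0.13 over the pairs, and 37 pairs had a smaller one. A gene in a larger cluster enters more than 1 pair, so the pairs overlap.

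**Figure D4:**
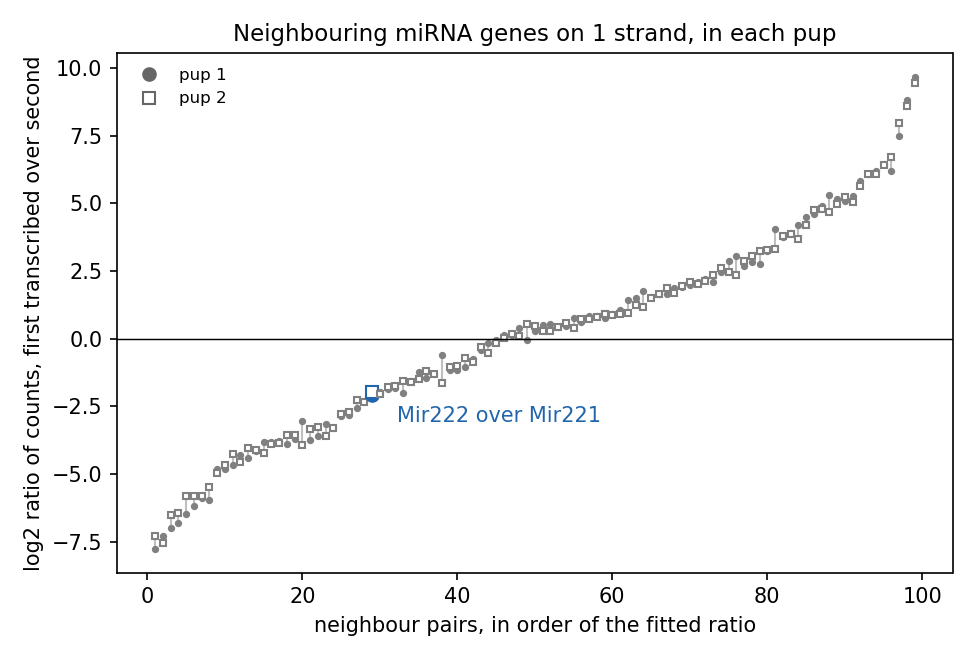
Log2 ratio of counts, first transcribed over second gene, for 99 neighbour pairs in order of the fitted ratio, with pup 1 as filled circles and pup 2 as open squares joined by a line. Mir222 over Mir221 (blue) lies at about -2, inside a spread that runs from below -7 to above 9.

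The littermates differed little at these genes. With the libraries scaled by TMM, a trimmed mean of ratios over genes, the log2 ratio of pup 2 over pup 1 was -0.09 for Mir126a (95% interval -0.10 to -0.08, exact binomial). This is 1.07-fold higher in pup 1, with an adjusted p of 1.51e-92 by the exact binomial test with Benjamini-Hochberg adjustment. For Mir221 the log2 ratio was -0.022 (-0.13 to 0.09; adjusted p = 0.847, exact binomial test), and its sign turned with upper-quartile scaling, to 0.020. For Mir222 it was 0.11 (-0.12 to 0.33; adjusted p = 0.545, exact binomial test). The interval of Mir221 reaches from 0.913-fold to 1.06-fold and that of Mir222 from 0.922-fold to 1.26-fold. Differences inside these bounds are compatible with the counts, and the smallest detectable difference was not computed. The genes furthest apart were Mir196b, with 7337 counts in pup 1 and 310 in pup 2, and Mir196a-2, with 272 and 35, both of Hox clusters and named after their values were seen. The labels name 1 intestine from each pup and no segment, and the part of unlike segments in the differences was not tested. The test sets 2 libraries against counting noise and has no replicate of either animal.

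Of 314 genes tested between the libraries, 129 passed, which is 41.1% (21.3% higher and 19.7% lower in pup 2). Of the members, 1 of 3 passed, near that background. The share that passed differed with depth. Among the 45 genes with at least 10000 counts in both libraries, 41 passed, against 57 of 81 with a lowest count from 1000 to below 10000, where Mir221 lies. From 100 to below 1000 counts, where Mir222 lies, 25 of 101 passed, and from 10 to below 100 counts 6 of 87. The median absolute log2 ratio in these ranges was 0.15, 0.14, 0.18 and 0.27. Counting noise adds to these observed ratios, most at low depth, so they do not show how large the differences beyond that noise were. As large a difference as that of Mir126a, in either direction, was seen in 221 of 314 genes (70.4%). It was -0.13 with total counts and -0.05 with upper-quartile scaling, and passed under both.

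Ratios inside a library need no scaling between pups. The log2 ratio of Mir126a over Mir221 differed by -0.07 (pup 2 minus pup 1), and that of Mir126a over Mir222 by -0.20. Fisher's exact test gave adjusted p = 0.319 and adjusted p = 0.246 over 3 such comparisons. The ratio of Mir222 over Mir221 was 0.13 higher in pup 2 (adjusted p = 0.319, Fisher's exact test). None of the 3 comparisons passed, and these tests were added after the values were seen. Both cluster genes lie on chromosome X, where the 36 detected genes had a median log2 ratio of 0.03, against 0.00 over all 314 genes.

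**Figure D5:**
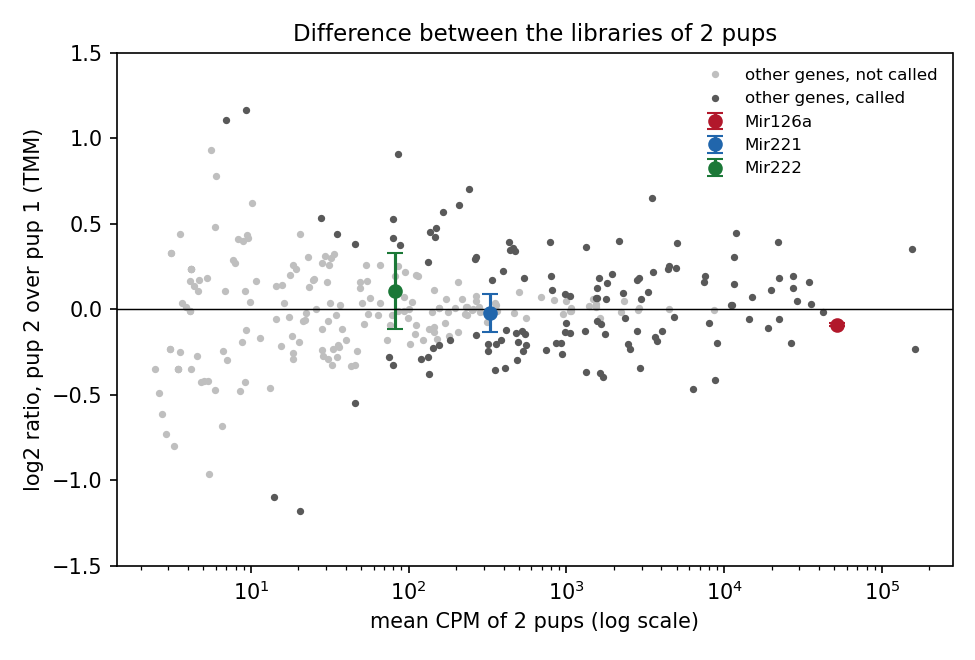
Log2 ratio of pup 2 over pup 1 after TMM scaling against mean CPM (log axis) for the detected genes, dark where the exact binomial test passed, with exact 95% intervals for the members; Mir196b and Mir196a-2, beyond ±1.5, are not drawn. Mir126a lies at -0.09 with an interval smaller than its symbol, and the intervals of Mir221 and Mir222 include 0.

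A list of 38 miRNAs described in endothelium or in the growth of vessels put the members in their setting. Of these, 33 were tested, 1 was under the count minimum and 4 (Mir126b, Mir24-1, Mir378a and Mirlet7f-1) were not analysed here. Mir126a led the list and took 29.2% of its counts in pup 1 and 27.6% in pup 2, while Mir221 stood at place 20 and Mir222 at place 27. The 4 highest after Mir126a were Mir21a, a miRNA of growth and injury, with 33273 CPM in pup 1 and 36127 in pup 2, and Mir10a, of a Hox cluster, with 19861 and 17903 CPM. Next came Mir23b with 14832 and 13836 CPM and Mir130a with 11148 and 11008 CPM. Between the libraries 7 of the 33 were higher in pup 2, 11 were lower and 15 passed in neither direction, with a median log2 ratio of 0.00, the same as over all genes tested. The share that passed was 54.5%, against 41.1% of all genes, but 22 of the 33 had at least 1000 counts in both libraries. At the shares of all genes in the same ranges of depth 19.6 of the 33 would pass, against the 18 that did. Those shares include the list genes themselves, 10 of the 45 with at least 10000 counts, so these numbers are not independent. Of the 33, 12 share a run of 20 bases with another hairpin, Mir23b among them, and their counts are lower limits.

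Mir126a was the only endothelial marker measured, since Mir126b, the other gene of that list, was not analysed here, so the endothelial origin of these reads was not tested. Side by side with other cell types, smooth muscle miRNAs (3 genes, 2 of them detected, led by Mir143) summed to 181056 CPM in pup 1 and 150130 in pup 2. Mir126a was 0.302 and 0.332 times that sum. Epithelial miRNAs (10 genes, led by Mir215) summed to 297838 and 344959 CPM, and Mir126a was 0.183 and 0.144 times as high. Leukocyte and platelet miRNAs (6 of 7 genes, led by Mir342) summed to 1256 and 1503 CPM. Mir142b had 0 counts on its annotated strand and Mir142 was not analysed here, so this sum is a lower limit for the list. Mir126a was 43.5 and 33.1 times as high as the sum of these 6 genes. Erythroid miRNAs (3 genes, 2 of them detected, led by Mir451a) summed to 101 and 148 CPM. All these sums leave out reads that mapped to several places, so a sum can be too low and the ratio of Mir126a to it too high. The part of any of these cells in the counts of Mir221 and Mir222 was not tested.

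The members shared no extreme of predicted fold or base composition. RNAfold gave a minimum free energy of -0.43 kcal/mol per base for Mir126a, -0.45 for Mir221 and -0.52 for Mir222, against a median of -0.43 over 314 detected hairpins. Mir222, the least abundant member, had the most stable fold per base of the 3, and 16.2% of detected hairpins were more stable. GC content was 45.2% in Mir126a, 47.4% in Mir221 and 54.4% in Mir222, around the median of 50.0%.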

How the data were processed

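The authors deposited raw read counts per miRNA gene for each library, made on mm10 with annotation M4, per the text files deposited with them; the aligner and counter are not given in the sources used here. The 3 count columns per library have no header. The first equals the sum of the others in every gene. The second, with 96.6% and 96.7% of that sum in pups 1 and 2, was taken as the annotated strand and the third as the opposite strand, an assumption behind every level. Totals that name no gene (4 per library) stayed out of library sizes and tests. Depth was 6375694 reads for pup 1 and 8373497 for pup 2, of which 3567658 and 4683939 lay on the annotated strand of miRNA genes.

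Symbols and places came from GENCODE M21 on GRCm38, which matched 1894 of 1973 identifiers; the other 79 held 0 counts. Detected means at least 10 counts in each library. Genes were tested between libraries with an exact binomial test (2-sided, scipy 1.17.1) whose null share came from TMM-scaled library sizes, and gene pairs within libraries with edgeR 4.0.16, both with Benjamini-Hochberg adjustment over all genes or pairs and a threshold of 0.05. The scripts were tested on simulated data. Hairpins were folded with RNAfold 2.7.2. Alternatives were other scalings, count minimums, strands, denominators, distances, tools (DESeq2 1.42.0, limma 3.58.1), no pup block and each pup alone.

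The members and lists were chosen with earlier results of these data known. Named genes are the members, genes sharing their seeds, their neighbours in level, the highest list members, and the extreme or nearest pairs.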

Additional observations from a re-analysis of the deposited data

Results flagged for a closer look

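Reads on the strand opposite Mir126a were outside the measurement used above. They numbered 43 in pup 1 and 39 in pup 2, above the 3 counts that a count of 0 allows. These are 0.0221% (exact binomial 95% interval 0.0160 to 0.0297) and 0.0167% (0.0119 to 0.0229) of the reads on both strands there, and the intervals of the pups overlap. Mir126b is annotated on that strand, from 26591363 to 26591420 on chromosome 2 of GRCm38, wholly within the span of Mir126a. Only 5 of 314 detected genes had more than 3 opposite-strand counts in both pups, and 290 had 0 in both. Named after their values were seen, the other 4 were Mir203, Mir3074-1, Mir3073a and Mir200a. Mir221 and Mir222 had 0 opposite-strand counts, which allows a share of up to 0.250% and 0.199% for Mir221 in pups 1 and 2 and up to 1.05% and 0.767% for Mir222. A share as small as that of Mir126a could not have been seen at their depth.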

How the results depend on the processing

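Of 39 recomputed ratios with a test, 38 kept their direction and their side of the threshold. The log2 ratio of Mir221 between pups turned from -0.022 to 0.020 with upper-quartile scaling and passed the test under neither. Levels depended on the denominator. Per 1000000 of all reads, Mir126a, Mir221 and Mir222 had means of 29212, 184 and 45.7. Without Mir143, the most abundant gene by mean though below Mir215 in pup 2, they had 62314, 393 and 97.4 CPM. With either strand counted, Mir221 and Mir222 had 318 and 78.9 CPM. The order of the 3 genes was the same in each case. Taking each pup alone, levels ran from 49791 to 54634 CPM for Mir126a, 322 to 337 for Mir221 and 79.9 to 83.5 for Mir222. With 2 pups, each alone is bound to lie within 1 SD of the mean. The log2 ratio within libraries ran from -2.08 to -1.95 for Mir222 over Mir221. Without the pup block (the pairing of genes within a library) it was -2.01, and no call on the members changed. The number of neighbour pairs called, 92 above, was 93 there, 108 with a minimum of 1 count, 69 with a minimum of 100 and 86 within 5 kb, where other pairs enter the fit. The number of genes called between the pups ran from 120 to 136, but the number tested changed with the count minimum. With a minimum of 1 count in either library 120 of 672 genes were called, and with a minimum of 100 in each library 126 of 227. The main setting called 129 of 314, so the share called depended on that minimum.

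Genes higher in pup 2 were 51.9% of those called with TMM, 41.7% with total counts and 64.6% with upper quartiles. The balance of directions among called genes thus depended on the scaling, while of the members only Mir221 changed sign. With 2 animals of 1 litter, depth limits Mir222 most.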
